A study of Mus musculus with 9 samples.

Results

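Integrin subunits that bind the RGD (arginine-glycine-aspartate) sequence were examined in the mouse uterus together with fibronectin and osteopontin, the ligands that carry this sequence. The 10 genes were found by symbol in the deposited expression table, and all 10 were present among its 31274 entries. They were the alpha subunits *Itga5*, *Itgav* and *Itga8*, the beta subunits *Itgb1*, *Itgb3*, *Itgb5*, *Itgb6* and *Itgb8*, and the ligands *Fn1* (fibronectin) and *Spp1* (osteopontin). Whole uterus of C57BL/6 mice was sequenced on pseudopregnancy day 4.5, the receptive phase, after mating to vasectomized males, so that no embryo was present. The 4 control mice had the genotype Wnk1f/f, with loxP sites around exon 2 of both *Wnk1* alleles and no Cre. The 5 Wnk1d/d mice had the same floxed alleles and in addition Cre expressed from the progesterone receptor locus, which removes exon 2 in cells that express this receptor and leaves *Wnk1* intact in cells that do not, such as endothelial and immune cells. Cre in this line also acts in the ovary and pituitary. Each library came from 1 mouse, and the mice were young adult virgin females. The comparison asks how loss of WNK1, a kinase, changed adhesion receptors and their ligands in the uterus during receptivity.

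Integrins are cell surface receptors made of an alpha and a beta subunit, and they link the extracellular matrix to the actin cytoskeleton. ITGA5 pairs with ITGB1 to form the main fibronectin receptor, ITGA8 also pairs with ITGB1, and ITGAV pairs with each of the 5 beta subunits studied here. ITGAV:ITGB3 and osteopontin are long-studied candidates for the attachment of the embryo to the uterine epithelium, and ITGAV:ITGB6 and ITGAV:ITGB8 are known to activate latent TGF-beta.

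The RGD codons of both ligands are shown first, since this tripeptide is what the receptors share as a target. They were read in frame from the coding sequences of GENCODE release M21 on mm10, with 24 bases on either side. The capitals mark the RGD codons.
Fn1, exon 30, chr1:71606722-71606778, minus strand: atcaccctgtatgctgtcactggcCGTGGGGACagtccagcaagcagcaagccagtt
Fn1, exon 40, chr1:71597419-71597475, minus strand: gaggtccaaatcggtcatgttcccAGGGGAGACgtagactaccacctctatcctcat
Spp1, exon 5, chr5:104439457-104439513, plus strand: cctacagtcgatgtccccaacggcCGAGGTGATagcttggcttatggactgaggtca
The codons in exon 30 of *Fn1* are those of the classical cell binding site. Fibronectin transcript ENSMUST00000055226.12 has 46 exons and held in-frame RGD codons at 2 places, and *Spp1* transcript ENSMUST00000112747.1 has 6 exons and held them at 1. Of the annotated coding transcripts, 7 of 9 for *Fn1* and 6 of 7 for *Spp1* contained RGD codons. FPKM, a fragment count scaled by gene length and library total, was given per gene, so these transcripts were not told apart.

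Absolute depth is unknown from FPKM. The worth of 1 fragment was read from 20 low entries, chosen because their values above 0 were nearly alike across libraries. It differed at most 1.35 times between libraries, but this choice bounds the spread in advance and cannot show that depths were alike. Median log2(FPKM + 1) of the 14728 genes tested lay between 3.79 and 3.82 in all 9 libraries, and no pair of libraries shared more than 0.930% identical values. In all, 2 libraries stood apart. Liver genes summed to 164 FPKM in Wnk1f/f replicate 4 against 8.32 to 10.8 FPKM in the other controls, and a single entry took 70.3% of the summed FPKM in Wnk1d/d replicate 4. *Wnk1* itself was 43.4 to 47.3 FPKM in Wnk1f/f and 29.9 to 33.9 FPKM in Wnk1d/d uteri, without overlap and in the direction the labels require (log2 fold change -0.52, limma adjusted p = 0.00167). These values cover the whole gene, including the exons outside the deletion. All 7 genes taken as marks of the uterus, among them *Pgr*, *Esr1*, *Hoxa10*, *Krt8* and *Myh11*, were above 0 in every library.

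Both ligands and 5 of the 8 receptor subunits (*Itga5*, *Itgav*, *Itgb1*, *Itgb3* and *Itgb6*) were higher in Wnk1d/d uteri at an adjusted p under 0.05. A gene was called when its limma adjusted p was under 0.05 and its mean FPKM differed at least 1.5 times. Of the 10 genes 4 were called, *Fn1*, *Spp1*, *Itga5* and *Itgb6*, and all 4 were higher, where 10.3% of all genes tested were called, 5.09% higher and 5.18% lower. The adjusted p alone was under 0.05 for 7 of the 10, again all higher, where it was under 0.05 for 22.1% of all genes tested, 11.1% with higher levels. The median log2 fold change of the 10 genes was 0.42 and that of all genes tested 0.00. The libraries of the genotypes did not overlap for 6 of the 10, with Wnk1d/d above Wnk1f/f each time, where 19.9% of all genes did not overlap in either direction and 9.27% were higher in this way. The 10 genes were chosen with earlier results of these data known, so their contrast with all genes is not a test. Without both libraries that stood apart, an alternative chosen after seeing the data, *Fn1* and *Itga5* were still called, *Itga8* was called as well, and *Spp1* and *Itgb6* were not (limma adjusted p = 0.0739 and 0.0977). Genes were tested when their mean was above 1 FPKM in at least 1 genotype, and *Itgb6* and *Itgb8* passed only through Wnk1d/d, so that *Itgb6* could be called only as higher, and its part in these counts is a description. Of the 8 genes above 1 FPKM in both genotypes, 3 were called, 6 had an adjusted p under 0.05 and 5 did not overlap, with a median log2 fold change of 0.42. The shares given above cover all genes tested, also those above 1 FPKM in only 1 genotype. RNA levels say nothing here of assembled receptor at the cell surface.

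**Figure D1:**
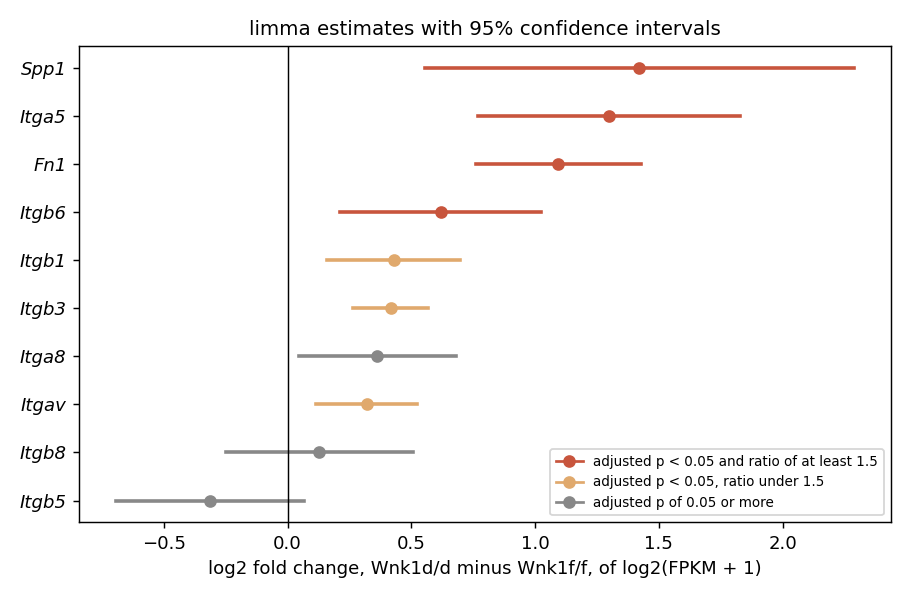
Log2 fold change (x axis, Wnk1d/d minus Wnk1f/f, on log2(FPKM + 1)) of the 10 genes, with points for limma estimates and lines for 95% confidence intervals. The intervals of *Itgb5* and *Itgb8* include 0, those of the other 8 genes lie above 0, and *Spp1*, *Itga5* and *Fn1* have estimates above 1.

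*Fn1* (chr1:71585520-71653200, minus strand, mm10), the matrix glycoprotein bound by ITGA5:ITGB1, had 134, 164, 143 and 105 FPKM in Wnk1f/f replicates 1 to 4 and 277, 243, 259, 333 and 345 FPKM in Wnk1d/d replicates 1 to 5. The lowest Wnk1d/d library was 78.3 FPKM above the highest control, a gap wider than the SD within either genotype. The mean more than doubled, from 136 ± 24.6 FPKM (SD, n = 4) to 291 ± 45.4 FPKM (SD, n = 5), with a log2 fold change of 1.09 (standard error 0.15, 95% confidence interval 0.76 to 1.43, limma adjusted p = 0.00317). The call held in each of the 9 fits that left out 1 library, where the log2 fold change was 0.97 to 1.19. Liver is a source of plasma fibronectin, *Fn1* was 105 FPKM in Wnk1f/f replicate 4, in which liver genes were high, and their part in the result was not tested.

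*Spp1* (chr5:104435118-104441050, plus strand), a secreted phosphoprotein, had 26.9, 25.7, 14.7 and 23.2 FPKM in Wnk1f/f replicates 1 to 4 and 129, 62.9, 82.9, 42.1 and 28.9 FPKM in Wnk1d/d replicates 1 to 5. All Wnk1d/d libraries were above all controls, but Wnk1d/d replicate 5 only by 2.04 FPKM, and the Wnk1d/d libraries differed 4.44 times among themselves. The ratio of the means was 3.06, or 2.40 without Wnk1d/d replicate 1, and the log2 fold change was 1.42 with a wide confidence interval of 0.56 to 2.29 (standard error 0.39, limma adjusted p = 0.0298). Its call was lost with library weights (limma adjusted p = 0.0850) and without Wnk1f/f replicate 2, 3 or 4 or Wnk1d/d replicate 3 (limma adjusted p = 0.0518, 0.0686, 0.0655 and 0.0718), and the log2 fold change over the 9 fits that left out 1 library was 1.15 to 1.68. An exact two-sided permutation test of the group means gave p = 0.0159 for *Spp1* and p = 0.00794 for *Fn1*, the latter the smallest that 4 against 5 libraries allow. Such tests were run for all 10 genes and their p-values are unadjusted.

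The alpha subunits differed widely in how much they changed. *Itga5* (chr15:103344286-103366763, minus strand), the alpha subunit of the fibronectin receptor, had 72.4, 41.0, 59.2 and 42.7 FPKM in Wnk1f/f replicates 1 to 4 and 107, 87.1, 143, 162 and 173 FPKM in Wnk1d/d replicates 1 to 5. Its libraries did not overlap, and its mean went from 53.8 ± 14.9 FPKM (SD, n = 4) to 134 ± 36.6 FPKM (SD, n = 5). The log2 fold change was 1.30 (standard error 0.24, 95% confidence interval 0.77 to 1.83) at a limma adjusted p of 0.00781, and p was 0.00794 in an exact permutation test. It was called in each of the 9 fits that left out 1 library.

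*Itgav* (chr2:83724397-83806916, plus strand), the alpha subunit that osteopontin and vitronectin receptors share, had 8.97, 7.08, 9.59 and 9.74 FPKM in Wnk1f/f and 11.4, 11.7, 10.7, 10.5 and 11.9 FPKM in Wnk1d/d replicates in the same order. Each Wnk1d/d library was above each control, by a gap of 0.790 FPKM. The ratio was only 1.27 with a log2 fold change of 0.32 ± 0.09 (standard error), so that *Itgav* was not called at its limma adjusted p of 0.0347 (p = 0.00794 by exact permutation). Leaving out Wnk1f/f replicate 1 or 2 or Wnk1d/d replicate 1, 3, 4 or 5 raised the adjusted p above 0.05, as did testing without a filter on low genes (limma adjusted p = 0.0521).

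*Itga8* (chr2:12106632-12301922, minus strand), known as a receptor subunit of mesenchymal and smooth muscle cells, had 3.62, 2.44, 3.20 and 5.05 FPKM in Wnk1f/f and 5.09, 4.54, 4.70, 4.55 and 4.96 FPKM in Wnk1d/d replicates. Wnk1f/f replicate 4 lay within the narrow range of the Wnk1d/d libraries and the other controls lay below it. Its log2 fold change was 0.36 ± 0.14 (standard error), and the limma adjusted p of 0.0920 missed the threshold (p = 0.0476 by exact permutation). Without Wnk1f/f replicate 4 *Itga8* was called, with a log2 fold change of 0.51 and a ratio of 1.54 (limma adjusted p = 0.0233).

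Among the beta subunits, *Itgb1* and *Itgb3* had the same ratio of means and neither was called. *Itgb1* (chr8:128685654-128733200, plus strand), the common partner of ITGA5, ITGA8 and ITGAV, had 196, 156, 185 and 154 FPKM in Wnk1f/f and 224, 187, 241, 272 and 240 FPKM in Wnk1d/d replicates. Wnk1d/d replicate 2 was below the highest control and the other 4 Wnk1d/d libraries were above all controls. The mean went from 173 ± 21.1 to 233 ± 31.1 FPKM (SD, n = 4 and n = 5), a ratio of 1.35. The log2 fold change was 0.43 ± 0.12 (standard error), with a limma adjusted p of 0.0327 and p = 0.0238 by exact permutation. The adjusted p was 0.106 after quantile normalization and missed the threshold in 6 of the 9 fits that left out 1 library, those without Wnk1f/f replicate 2 or 4 or Wnk1d/d replicate 1, 3, 4 or 5. Its log2 fold change after quantile normalization was 0.26.

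*Itgb3* (chr11:104608000-104670476, plus strand), the partner of ITGAV in the osteopontin receptor, varied least of the 10 genes between the controls (coefficient of variation 3.45%). It had 22.8, 21.5, 22.3 and 21.1 FPKM in Wnk1f/f and 29.6, 25.9, 30.2, 32.1 and 30.4 FPKM in Wnk1d/d replicates, without overlap. The ratio was 1.35, under the fold criterion, with a log2 fold change of 0.42 (95% confidence interval 0.26 to 0.57) at a limma adjusted p of 0.00571 (p = 0.0159 by exact permutation). Its adjusted p stayed under 0.05 in all 9 fits that left out 1 library.

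*Itgb5* (chr16:33829665-33949338, plus strand), the vitronectin receptor partner of ITGAV, was the only one of the 10 genes with a lower mean in Wnk1d/d uteri. It had 55.0, 57.8, 43.9 and 70.1 FPKM in Wnk1f/f and 53.1, 56.4, 44.8, 34.1 and 39.5 FPKM in Wnk1d/d replicates. The genotypes overlapped widely. The log2 fold change of -0.31 had a 95% confidence interval of -0.69 to 0.07, with a limma adjusted p of 0.200 and p = 0.143 by exact permutation.

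*Itgb6* (chr2:60598292-60722643, minus strand), the epithelial partner of ITGAV, was scarce, with 0.310, 1.02, 0.640 and 0.530 FPKM in Wnk1f/f and 2.48, 1.41, 1.48, 1.10 and 1.08 FPKM in Wnk1d/d replicates. The gap between the genotypes was only 0.0600 FPKM, and Wnk1d/d replicate 1 stood above all other libraries. It was called with a ratio of 2.42 and a log2 fold change of 0.62 ± 0.18 (standard error), at a limma adjusted p of 0.0385 (p = 0.00794 by exact permutation). *Itgb6* passed the filter only through Wnk1d/d, so that it could be called only as higher, and its call is a description. On the log2(FPKM + 1) scale the change of so low a gene is understated, and a pseudocount of 0.1 gave 1.18. The call was lost without Wnk1f/f replicate 1, 3 or 4 or Wnk1d/d replicate 1 or 3, with limma adjusted p between 0.0583 and 0.0925. *Itgb8* (chr12:119158022-119238802, minus strand), the other low partner of ITGAV, had 0.490 to 1.57 FPKM in Wnk1f/f and 0.850 to 1.38 FPKM in Wnk1d/d uteri, fully within the control range. Its log2 fold change of 0.13 had a confidence interval of -0.25 to 0.50, at a limma adjusted p of 0.599 (p = 0.492 by exact permutation).

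**Figure D2:**
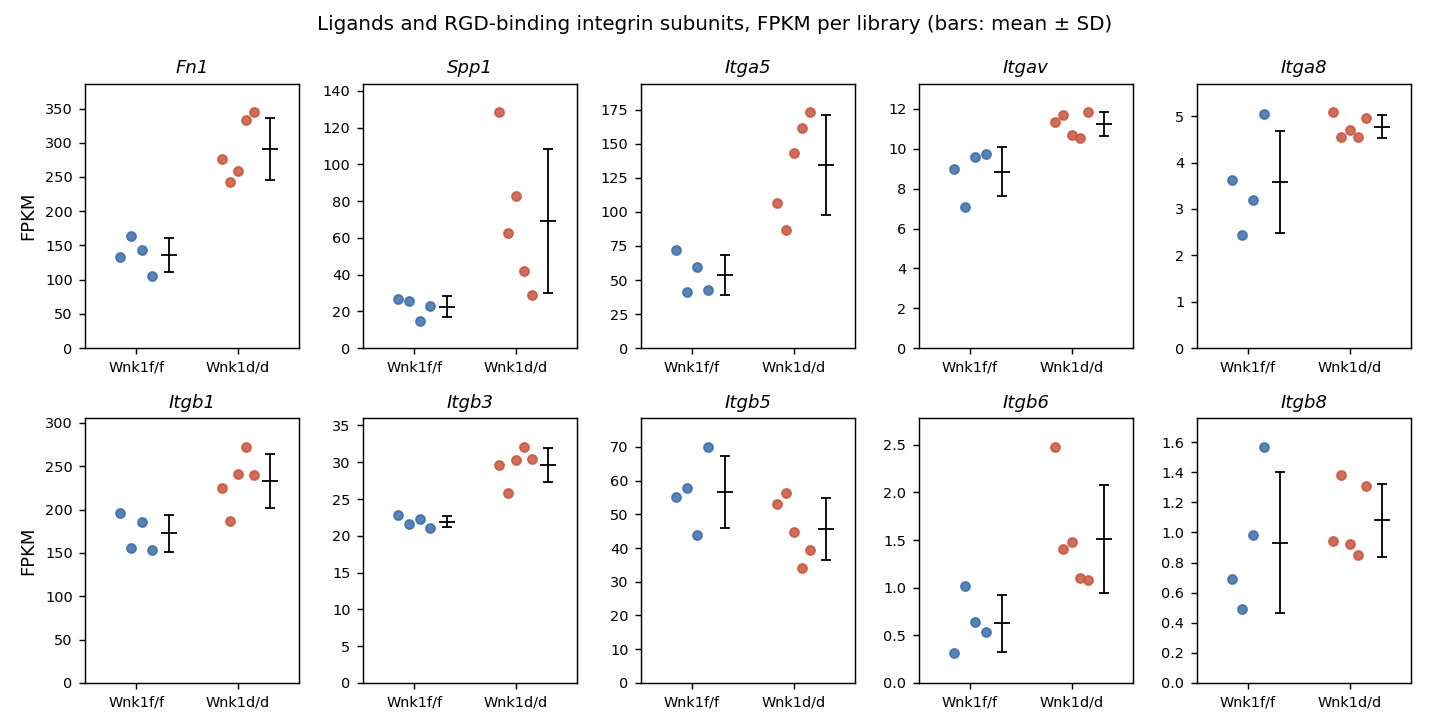
FPKM of each ligand and integrin subunit (y axes, each starting at 0) in the 4 Wnk1f/f and 5 Wnk1d/d libraries, in replicate order from left to right, with bars for mean ± SD. *Fn1*, *Spp1*, *Itga5*, *Itgav*, *Itgb3* and *Itgb6* do not overlap between the genotypes, and *Itgb5* alone has a lower mean in Wnk1d/d.

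FPKM is scaled by length, so levels could also be ordered between genes. In Wnk1f/f uteri *Itgb1* was the most abundant at 173 FPKM, followed by *Fn1* (136), *Itgb5* (56.7), *Itga5* (53.8), *Spp1* (22.6), *Itgb3* (21.9), *Itgav* (8.85), *Itga8* (3.58), *Itgb8* (0.933) and *Itgb6* (0.625). The neighbouring pairs *Itgb1* and *Fn1*, *Itgb5* and *Itga5*, *Spp1* and *Itgb3*, and *Itgb8* and *Itgb6* overlapped between libraries, and the other neighbours did not. In Wnk1d/d uteri *Fn1* came first at 291 FPKM, followed by *Itgb1* (233), *Itga5* (134), *Spp1* (69.1), *Itgb5* (45.6), *Itgb3* (29.7), *Itgav* (11.2), *Itga8* (4.77), *Itgb6* (1.51) and *Itgb8* (1.08). There the ranges of *Fn1* and *Itgb1*, of *Itga5* and *Spp1*, of *Spp1* and *Itgb5* and of *Itgb6* and *Itgb8* overlapped.

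As the changes were unequal, RNA ratios between some subunits differed between the genotypes. *Itga5* FPKM was 4.38 to 8.07 times *Itgav* FPKM in Wnk1f/f and 7.43 to 15.4 times in Wnk1d/d uteri, and only Wnk1d/d replicate 2 fell within the control range. *Itgb1* exceeded its partner *Itga5* by 2.70 to 3.80 times in Wnk1f/f and by 1.39 to 2.15 times in Wnk1d/d, without overlap, as *Itga5* rose more than *Itgb1*. The ratio of *Fn1* to *Itga5* was 1.85 to 4.01 in Wnk1f/f and 1.81 to 2.79 in Wnk1d/d, so ligand and receptor subunit overlapped in their ratio. Over the summed FPKM of the 5 beta partners of ITGAV, *Itgb3* took 8.31% to 9.10% in Wnk1f/f and 9.43% to 9.74% in Wnk1d/d. *Itgb5* took 17.3% to 28.4% in Wnk1f/f and 10.01% to 20.7% in Wnk1d/d, and *Itgb1* took 62.2% to 73.2% and 68.7% to 80.0%. *Itgb6* and *Itgb8* each stayed under 1% in every library. These shares and ratios are a description and were not tested. They cover the RNA of all cell types together and do not give the pairing of subunits.

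**Figure D3:**
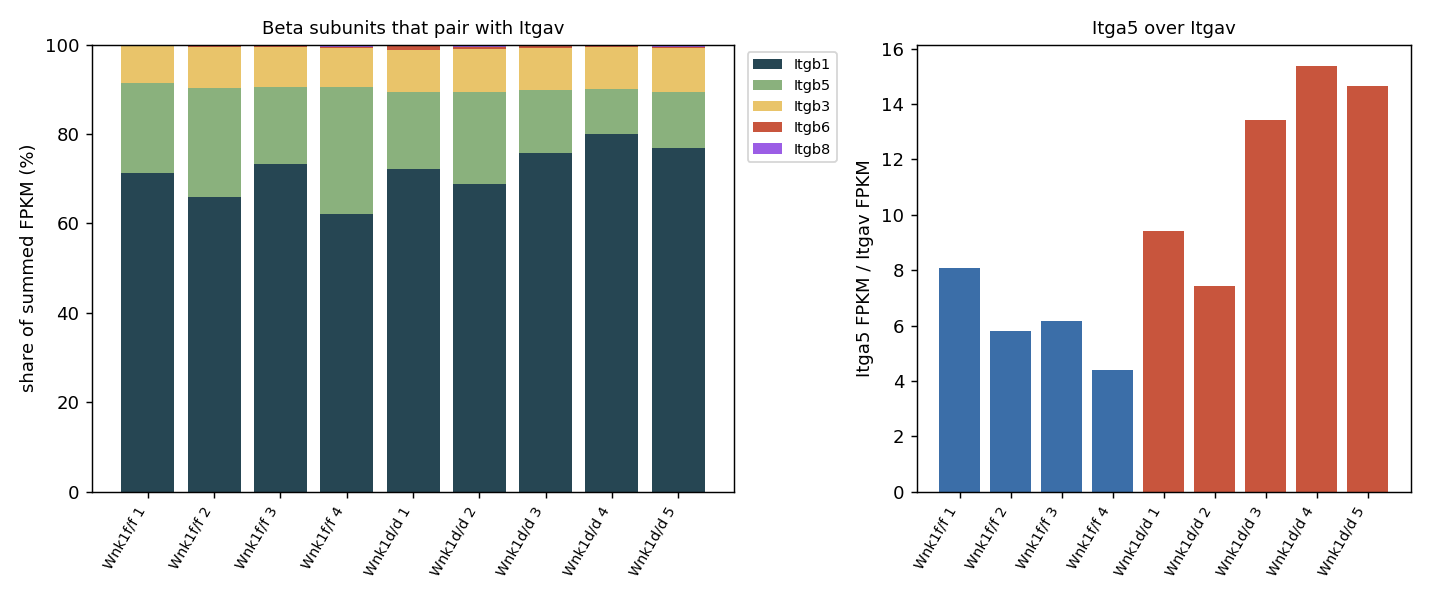
Left, share (%) of the summed FPKM of *Itgb1*, *Itgb5*, *Itgb3*, *Itgb6* and *Itgb8* in each library, as stacked bars. Right, *Itga5* FPKM divided by *Itgav* FPKM in each library, which was 4.38 to 8.07 in Wnk1f/f (blue) and 7.43 to 15.4 in Wnk1d/d (red).

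Markers of several cell types moved with genotype as well. In whole uterus, fewer cells of a type and less RNA per cell cannot be told apart. All 8 smooth muscle markers were called higher, and their summed FPKM was 2970 to 6684 in Wnk1f/f and 7496 to 14111 in Wnk1d/d uteri, led by *Actg2* (log2 fold change 2.03), *Cnn1* (1.41) and *Des* (1.22). In each genotype the 2 libraries highest in smooth muscle markers were also the 2 highest in *Itga5*. Per 1000 FPKM of these markers *Itga5* had 9.45 to 14.4 FPKM in Wnk1f/f and 10.9 to 12.9 FPKM in Wnk1d/d, and *Fn1* had 19.99 to 37.9 and 23.4 to 32.4 FPKM, so that both overlapped between the genotypes on this scale. *Itgb1* per 1000 FPKM of the markers was lower in Wnk1d/d, with 29.3 to 51.7 FPKM in Wnk1f/f and 17.7 to 24.9 FPKM in Wnk1d/d. The smooth muscle sum was itself higher in Wnk1d/d. *Itga5*, *Fn1*, *Itgb1*, *Itgb3*, *Itgav* and *Itga8* were not scaled to the epithelium or stroma markers, whose sums overlapped between the genotypes. How much of the change of these genes the smooth muscle RNA accounts for was not tested.

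Of 6 blood endothelium markers 5 were called lower, among them *Cdh5*, *Tek* and *Kdr*, with a summed 346 to 379 FPKM in Wnk1f/f and 141 to 291 FPKM in Wnk1d/d. Endothelial cells express *Itga5*, *Itgav* and *Itgb3* as well, and the part of these cells in their levels was not tested. None of 6 epithelium markers was called, and their sum was 602 to 906 FPKM in Wnk1f/f and 603 to 982 FPKM in Wnk1d/d. In both genotypes the library highest in epithelium markers was also the highest in *Itgb6*. Per 1000 FPKM of epithelium markers *Itgb6* had 0.515 to 1.13 FPKM in Wnk1f/f and 1.66 to 2.53 FPKM in Wnk1d/d, without overlap, and *Spp1* had 20.9 to 44.6 and 48.0 to 131 FPKM, also without overlap. Macrophages are a known source of *Spp1*, and none of 6 macrophage markers was called, with sums of 52.1 to 110 FPKM in Wnk1f/f and 48.5 to 86.3 FPKM in Wnk1d/d. Per 1000 FPKM of macrophage markers *Spp1* had 211 to 516 FPKM in Wnk1f/f and 384 to 1490 FPKM in Wnk1d/d, and per 1000 FPKM of smooth muscle markers 2.68 to 7.81 and 2.13 to 13.1 FPKM, both with overlap. On the macrophage scale only Wnk1d/d replicate 5 lay within the control range. The part of these cells in the change of *Spp1* was not tested. Among Wnk1d/d libraries *Spp1* and *Itgb6* had the same order, highest in replicate 1 and lowest in replicate 5.

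Of 6 stroma markers, *Lum* was called higher and *Pdgfra* and *Hoxa11* lower. *Hand2* and *Hoxa10* were lower too but not called (limma adjusted p = 0.0291 and 0.00623). In all, 5 of the 6 had an adjusted p under 0.05, beside 22.1% of all genes tested. Of these 5, 4 were lower without overlap, and the median log2 fold change of the list was -0.57. The list summed to 1087 to 1365 FPKM in Wnk1f/f and 1090 to 1291 FPKM in Wnk1d/d. None of 6 natural killer cell markers (summed 62.2 to 156 FPKM in Wnk1f/f and 74.5 to 119 FPKM in Wnk1d/d) and none of 6 liver markers was called. Of 5 platelet markers, which bear on *Itgb3* because platelets carry it, *Pf4* alone passed the filter, and it was called higher (log2 fold change 0.82), while the defining markers *Gp1ba*, *Gp9*, *Gp5* and *Ppbp* had means under 1 FPKM in both genotypes. The 4 neutrophil markers found in the table were also under that level. *Itga2b*, the partner of ITGB3 on platelets, was outside the platelet list. Its mean was 3.63 FPKM in Wnk1f/f and 4.34 FPKM in Wnk1d/d, and it was not called (limma adjusted p = 0.134). The part of platelets in the level of *Itgb3* was not tested. Among the marks of the uterus *Ovgp1* and *Myh11* were called higher and *Hoxa11* lower.

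**Figure D4:**
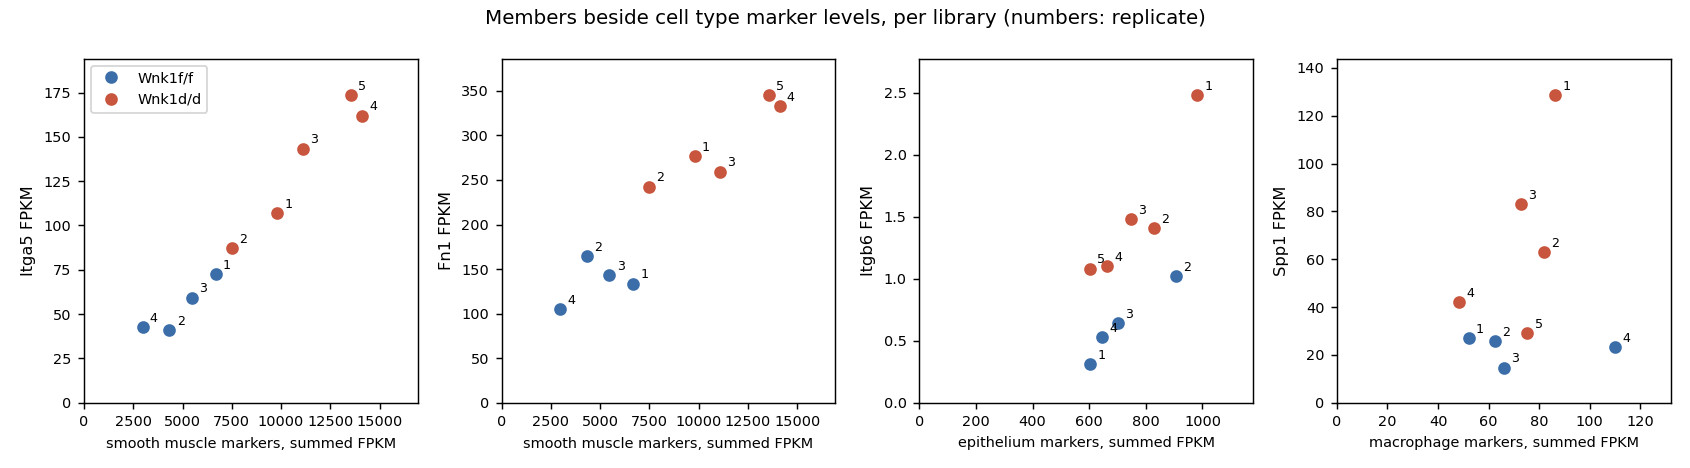
FPKM of *Itga5*, *Fn1*, *Itgb6* and *Spp1* (y axes) against the summed FPKM of smooth muscle, epithelium and macrophage markers (x axes) in each library, with replicate numbers beside the points, Wnk1f/f in blue and Wnk1d/d in red. Smooth muscle markers sum to at most 6684 FPKM in Wnk1f/f and at least 7496 FPKM in Wnk1d/d, whereas epithelium markers (beside *Itgb6*) and macrophage markers (beside *Spp1*) overlap between the genotypes.

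Integrin subunits outside this group were examined beside it. Of 19 in the list 16 were tested, 1 was called higher and 3 lower, where 5.09% of all genes tested were called higher and 5.18% lower. The median log2 fold change of the 16 was -0.15. *Itga9*, a receptor for osteopontin and tenascin that does not need RGD, was higher in every Wnk1d/d library, with 4.59 to 5.33 FPKM in Wnk1f/f and 5.69 to 10.1 FPKM in Wnk1d/d (log2 fold change 0.62, limma adjusted p = 0.0143). *Itgax*, the subunit of dendritic cells and macrophages known as CD11c, fell from a mean of 4.33 to 1.40 FPKM (log2 fold change -1.08, limma adjusted p = 0.0123). The collagen receptor subunits *Itga11* and *Itga10* fell too (log2 fold change -0.49 and -0.36), both from levels under 2 FPKM on average. *Itga11* had a mean of 0.578 FPKM in Wnk1d/d and passed the filter only through Wnk1f/f, so that it could be called only as lower.

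The other ligands went both ways. Of 17 listed proteins known to carry or be bound through RGD, 16 had in-frame RGD codons in a mouse transcript, the exception being *Tnc*. Of the 13 tested, 2 were called higher and 2 lower, beside 10.3% of all genes called in either direction. Their median log2 fold change was -0.10. *Igfbp2*, an IGF-binding protein, rose the most, from 0.790 to 1.57 FPKM in Wnk1f/f to 4.69 to 20.9 FPKM in Wnk1d/d (log2 fold change 2.44 ± 0.36, standard error, at a limma adjusted p of 0.00413). *Tnc* (tenascin-C) rose from 2.85 to 8.15 FPKM on average (log2 fold change 1.17, limma adjusted p = 0.0166). *Vwf* and *Vtn* (vitronectin) fell, with log2 fold changes of -1.08 and -0.81. *Vtn* is made in liver, and its highest value of 9.86 FPKM was in Wnk1f/f replicate 4, in which liver genes were high, and it had 4.70 to 6.34 FPKM in the other controls and 2.77 to 3.65 FPKM in Wnk1d/d. The part of liver RNA in this difference was not tested.

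Further partners of fibronectin and osteopontin comprised 11 genes, of which 10 were tested, 2 were called higher and none lower (median log2 fold change 0.22). Over all genes tested, 5.09% were called higher and 5.18% lower. *Tgm2*, a transglutaminase that crosslinks fibronectin and acts as its coreceptor with integrins, rose from 303 ± 8.21 FPKM (SD, n = 4) to 486 ± 39.1 FPKM (SD, n = 5; log2 fold change 0.68, limma adjusted p = 0.00209). *Plau* (urokinase) rose from 9.76 to 16.97 FPKM (log2 fold change 0.74, limma adjusted p = 0.0131). *Cd44*, the osteopontin receptor outside the integrin family, had 13.3 and 15.7 FPKM on average (limma adjusted p = 0.261).

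Inside the cell, integrins signal through an adhesion complex, and all 22 of its listed genes were tested. Of these 4 were called higher and 2 lower, beside 10.3% of all genes called in either direction. The adjusted p alone was under 0.05 for 9 with higher and 2 with lower levels, beside 11.1% of all genes with higher levels and 22.1% in either direction, and the median log2 fold change was 0.35. The actin-linking proteins *Vcl* (vinculin, log2 fold change 1.06), *Actn1* (0.83) and *Flna* (0.73) rose most. *Vcl* had 43.0 to 68.3 FPKM in Wnk1f/f and 90.0 to 128 FPKM in Wnk1d/d, *Actn1* 81.9 to 114 and 162 to 204 FPKM, and *Flna* 289 to 497 and 521 to 763 FPKM. *Parvb* and *Tln2*, whose close relatives *Parva* (0.48) and *Tln1* (0.28) had positive log2 fold changes, fell by 0.59 and 0.53 on the log2 scale. *Vcl*, *Actn1* and *Flna* are highly expressed in smooth muscle, whose markers were higher in the same libraries, and the part of those cells in these changes was not tested.

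**Figure D5:**
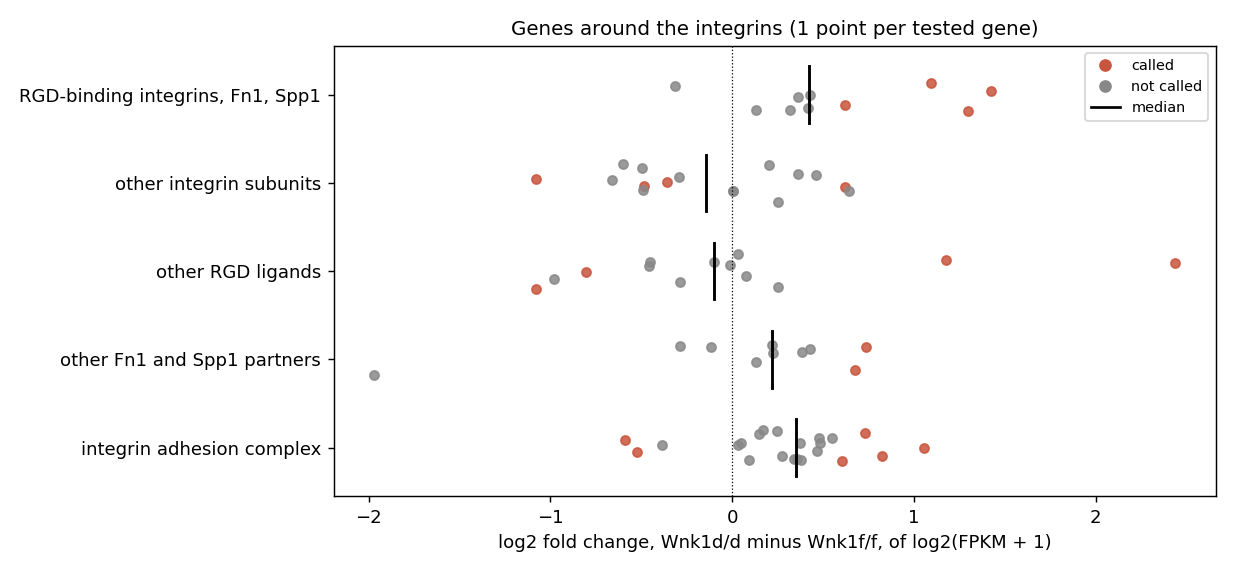
Log2 fold change (x axis, Wnk1d/d minus Wnk1f/f) of each tested gene in 5 lists (rows), with called genes in red, other genes in grey and a black line at the median. The medians were 0.42 for the RGD-binding integrins with both ligands, -0.15 for other integrin subunits, -0.10 for other RGD ligands, 0.22 for other partners and 0.35 for the adhesion complex.

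Over the 9 libraries the genes most like *Fn1* in log2(FPKM + 1), out of all genes tested, were *Spsb2* (Pearson r = 0.99), *Ccdc3* (0.99) and *Ogdh* (0.98). Those most like *Spp1* were *Stard5* (0.97), *Micall2* (0.96) and *Hs6st1* (0.96). These r describe libraries that share the genotype difference and were chosen as the highest of 14728 genes, so no p is given. All 6 had a higher mean in Wnk1d/d, such as *Ccdc3*, with 4.19 to 6.96 FPKM in Wnk1f/f and 9.43 to 16.8 FPKM in Wnk1d/d.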

How the data were processed

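The authors prepared TruSeq RNA libraries from uterine RNA of each mouse, aligned paired-end reads to mm10 with TopHat2 (2.0.4 in the submitters' processing notes) and deposited FPKM per gene from Cufflinks (2.0.2 in those notes), without pooling. The gene annotation and strand setting are not given in the sources used here; 5 of the 10 genes have other annotated genes within their span. Here log2(FPKM + 1) was compared with limma 3.58.1 in R 4.3.3 (trend, unpaired) over 14728 genes with mean FPKM above 1 in at least 1 genotype, with Benjamini-Hochberg adjustment. The study's Cuffdiff test needs reads and was not rerun. Exact permutation tests used all 126 splits (Python 3.11.15, NumPy 2.4.6). The fit was tested on simulated data. No columns of other samples (0) were present.

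Coordinates and coding sequences came from GENCODE M21. Members and lists were chosen with earlier results of these data known. Named were the 10 genes, *Wnk1*, from each other list up to 3 called genes per direction with the largest changes, and the 3 genes most like each ligand; other list genes given with values were picked after their values were seen. Alternatives were other pseudocounts, filters, scalings, variance models, fold criteria, a replicate block and leaving out libraries. The labels number the mice within each genotype, and equal numbers belong to different mice. Each library is 1 mouse, so p-values measure spread between mice.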

Additional observations from a re-analysis of the deposited data

Results flagged for a closer look

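Dixon's test was applied to each gene and each summed marker list within each genotype, 42 groups in all, of which chance alone flags about 1 in 20, and 2 values stood apart from the rest of their group. *Itgb6* in Wnk1d/d replicate 1 was 2.48 FPKM, where the other Wnk1d/d libraries had 1.08 to 1.48 FPKM. Liver markers in Wnk1f/f replicate 4 summed to 164 FPKM (164.1), where the other controls had 8.32 to 10.8 FPKM. Without Wnk1d/d replicate 1 the log2 fold change of *Itgb6* was 0.49 with a limma adjusted p of 0.0583.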

How the results depend on the processing

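The sign of the log2 fold change of each of the 10 genes was the same in every alternative that tested it. *Itga8*, *Itgb6* and *Itgb8* were not tested at a filter of 5 FPKM. The log2 fold change of *Itgb8* was only 0.014 without Wnk1f/f replicate 2. Of the 10 genes 4 were called, and 2 to 4 were in the fits that left out 1 library, with 2 without Wnk1f/f replicate 3 or Wnk1d/d replicate 3, where *Spp1* and *Itgb6* were lost. Over all genes tested 1513 were called, and 1019 to 1870 without 1 library, and in the 4 other pathway lists 16 were called, and 12 to 18 without 1 library. With the adjusted p alone 7 of the 10 genes, 3249 of all and 25 of the other lists passed, and with a ratio of at least 2 the numbers were 550 of all and 7 of the other lists. Leaving out both libraries numbered 4, chosen after seeing the data, gave 806 of all genes and 9 of the other lists, and among the 10 genes *Fn1*, *Itga5* and *Itga8* were called (limma adjusted p = 0.0150, 0.0458 and 0.0406).

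Replicate numbers did not pair the mice: same-numbered libraries had correlations of deviations from -0.27 to 0.02. With a replicate block, in which Wnk1d/d replicate 5 has no counterpart and adds nothing, 0 of the 10 genes, 218 of all genes and 0 of the other lists were called, *Wnk1* had a log2 fold change of -0.52 (limma adjusted p = 0.0518), and the adjusted p of *Fn1*, *Itga5*, *Spp1* and *Itgb6* was 0.0630, 0.0615, 0.0586 and 0.135. A permutation test within pairs was not run. FPKM without counts limits what can be said of *Itgb6* and *Itgb8*, whose levels are near 1 FPKM.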
